A study of Homo sapiens with 4 samples.

Results

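The stretch of chromosome 5 that holds CSF1R, PDGFRB, CDX1 and SLC6A7 was examined in ATAC-seq peak lists of HL-60 cells. It ran from 50 kb before CSF1R to 50 kb after SLC6A7 (hg19, chr5:149382854-149652351) and held 71 of the 195019 peaks of the 4 lists. These peaks merged into 26 of the 78046 regions found in any list. The stretch was selected on measured values, because earlier results of the same lists showed a run of peaks in control cells only, so presence and rank of peaks are given here as descriptions with no test.

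ATAC-seq marks open chromatin through the Tn5 transposase, which inserts sequencing adapters where DNA is not packed. HL-60 is a human promyelocytic leukemia line that matures toward granulocytes when given all-trans retinoic acid (ATRA). Cells were kept for 4 days either in 1 µM ATRA or, as the control, in the same volume of ethanol, its solvent, with 2 replicates of each treatment and a change of medium in between. Both groups were the same line in the same medium, so the comparison concerns 1 leukemia line and no primary cells.

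CSF1R is the receptor tyrosine kinase for the growth factors CSF1 and IL34, and it is best known from monocytes and macrophages, which need it to survive and mature. PDGFRB, its neighbour, is the related receptor for platelet-derived growth factors and is typical of pericytes, smooth muscle cells and fibroblasts. Both genes are read from the minus strand and belong to the class III family together with PDGFRA, KIT and FLT3. CDX1 encodes a homeobox transcription factor of the intestinal epithelium, and SLC6A7 encodes a proline transporter of the brain. In myeloid cells CSF1R is known to be read from a start site in front of its first coding exon, which PU.1, RUNX1 and C/EBP factors bind.

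Of the 26 regions, 5 had a peak in both control lists and in neither ATRA list. These control-only regions carry the pattern for which the stretch was chosen, so the 200 bases about the centre of each are shown, 5′ to 3′ on the plus strand of hg19 as read from GRCh37. Capitals mark matches on either strand to motifs of the GATA factors (AGATAA, or with T as its first letter), PU.1 (GAGGAA), RUNX (TGTGGT), CEBP (TTGCNNAA), AP-1 (TGANTCA), E-box (CACGTG), ETS (CCGGAAGT), CTCF or the retinoic acid receptor repeat DR5. The PU.1 and ETS motifs share the letters GGAA, but the letter before these differs, so the same GGAA cannot match both.
HMGXB3 intron 17 (chr5:149425515-149425714): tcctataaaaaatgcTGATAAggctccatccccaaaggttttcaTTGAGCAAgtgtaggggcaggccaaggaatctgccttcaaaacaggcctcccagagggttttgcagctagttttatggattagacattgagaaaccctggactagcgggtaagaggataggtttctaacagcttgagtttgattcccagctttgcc
PDGFRB intron 22 (chr5:149496687-149496886): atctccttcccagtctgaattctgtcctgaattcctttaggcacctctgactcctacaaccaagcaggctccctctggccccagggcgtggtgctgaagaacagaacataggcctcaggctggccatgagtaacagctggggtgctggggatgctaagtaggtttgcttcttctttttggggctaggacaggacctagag
PDGFRB intron 19 (chr5:149499041-149499240): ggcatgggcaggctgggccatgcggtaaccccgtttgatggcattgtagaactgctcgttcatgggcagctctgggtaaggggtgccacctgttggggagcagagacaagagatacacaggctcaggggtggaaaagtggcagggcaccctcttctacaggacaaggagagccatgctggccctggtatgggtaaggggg
Intergenic, upstream of PDGFRB (chr5:149539528-149539727): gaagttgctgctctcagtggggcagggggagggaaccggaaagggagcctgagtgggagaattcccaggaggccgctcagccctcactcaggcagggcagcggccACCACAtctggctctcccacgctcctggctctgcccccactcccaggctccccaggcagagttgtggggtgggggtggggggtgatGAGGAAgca
SLC6A7 intron 13 (chr5:149586014-149586213): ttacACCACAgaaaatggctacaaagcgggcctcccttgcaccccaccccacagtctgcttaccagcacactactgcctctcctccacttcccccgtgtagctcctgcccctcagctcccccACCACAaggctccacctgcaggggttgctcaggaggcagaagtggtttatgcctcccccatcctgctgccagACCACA

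The matches were sparse. The region in HMGXB3 intron 17 held 1 GATA and 1 CEBP match, the intergenic region held PU.1 and RUNX matches, and the region in SLC6A7 intron 13 held RUNX matches alone. Neither PDGFRB intron held any of the 9 motifs in these letters. A GATA match was thus present in 1 of the 5 control-only regions, while 43.7% of the 2633 control-only regions of the genome and 18.8% of all 78046 regions held one. RUNX matches were present in 2 of the 5, and in 28.3% of the control-only regions of the genome. With whole regions searched, 2 of the 5 held a GATA match, against 54.7% of the control-only regions of the genome. In the same search 4 of the 5 held a RUNX match, against 38.7%. The lengths searched were unequal, because the median width was 473 bp for the 5 and 355 bp for the control-only regions of the genome. A match is a description of the letters and not a measured binding site.

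The 5 control-only regions did not lie next to each other, and shared regions stood between all of them but the pair in PDGFRB introns 22 and 19. They spread over HMGXB3, PDGFRB, the gap between PDGFRB and CDX1, and SLC6A7, and 0 of them lay in the body of CSF1R. Over the genome, 3.37% of regions had a peak in both control lists only, and 8.93% had a peak in both ATRA lists only. The stretch held 0 regions of the latter kind. Since the control-only pattern chose the stretch, its share of 19.2% here is set beside the genome value as a description.

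**Figure D1:**
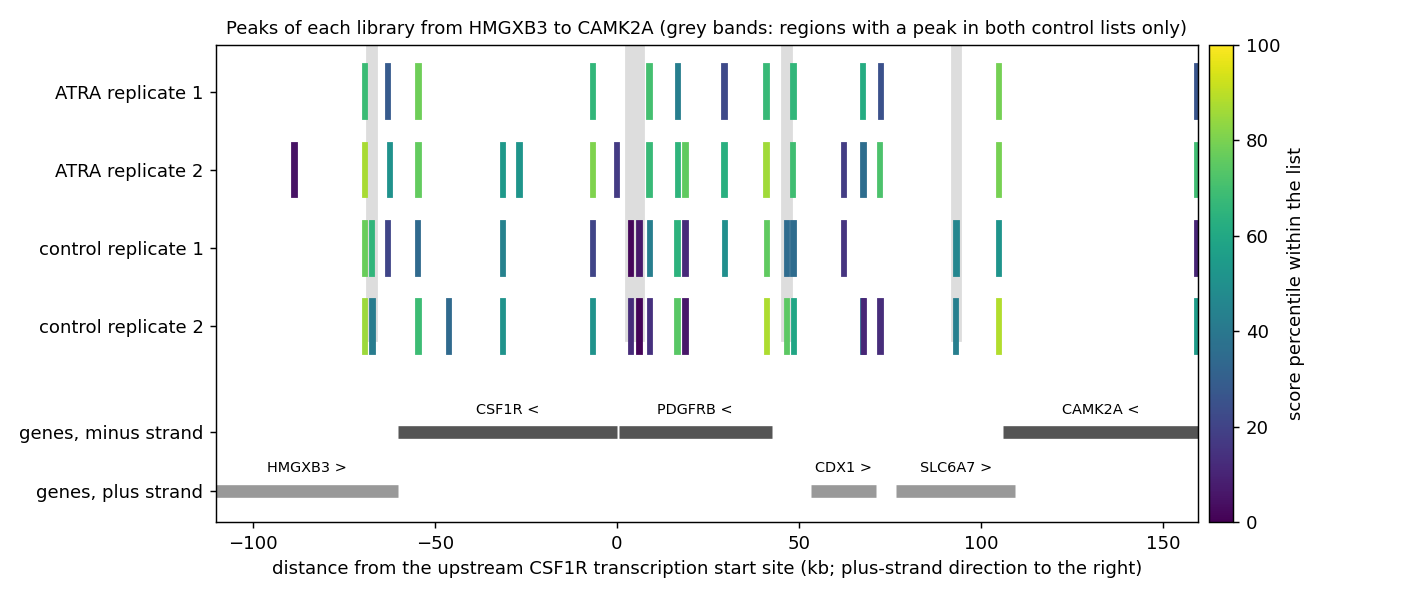
Peaks of the 4 libraries by distance from the upstream CSF1R transcription start site in kb, with the protein-coding genes below (an arrowhead gives the direction of reading) and colour for the percentile of the peak score within its list. Bars are drawn at least 1.2 kb wide so that peaks can be seen, and grey bands mark the 5 regions with a peak in both control lists only, which lie outside the CSF1R body.

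The peak caller's score was read only as a rank, the percentile of a peak among all peaks of its own list, where higher means a stronger peak. In HMGXB3 intron 17 (chr5:149425264-149425965) the peak ranked at the 65.5th percentile in control replicate 1 and at the 41.6th in control replicate 2. Its width was 702 bp in the first and 309 bp in the second. HMGXB3 encodes an HMG-box protein, and the region was 40375 bp from the nearest transcription start site (TSS), that of CSF1R. Both control libraries thus placed it in the middle ranks, and the nearest ATRA peak was 1111 bp away.

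Both control-only regions of PDGFRB lay near its 3′ end, closer to the CSF1R start than to its own. The intron 22 region (chr5:149496551-149497023) ranked at the 1.18th percentile in control replicate 1 and at the 12.4th in control replicate 2. The intron 19 region (chr5:149498982-149499300), which also covered part of a PDGFRB exon, ranked at the 6.40th and the 1.13th percentile. In both regions and both control libraries these peaks lay near the bottom of their list. Their scores were 51.07 and 56.9 in intron 22, and 55.63 and 50.74 in intron 19, while the lowest score in any list was 50. The absence of an ATRA peak is therefore set beside control peaks that lay close to the calling limit. The nearest ATRA peaks were 3549 bp from the intron 22 region and 2312 bp from the intron 19 region.

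The intergenic region (chr5:149539291-149539964) lay 4220 bp upstream of the nearest PDGFRB TSS. It ranked at the 35.0th percentile in control replicate 1 and at the 74.8th in control replicate 2, the highest rank among the control-only regions. Its widths were 485 and 655 bp. The nearest ATRA peak lay 1103 bp away, in the region described below that all libraries shared.

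The region in SLC6A7 intron 13 (chr5:149585915-149586313) ranked at the 45.8th percentile in control replicate 1 and at the 42.7th in control replicate 2, with widths of 376 and 329 bp. The replicates were closest to each other here. No ATRA peak was found within 11283 bp, the longest such gap of the 5. Over the 5 regions the median percentile was 35.0 in control replicate 1 and 41.6 in control replicate 2, beside 38.5 and 38.4 over the 2633 control-only regions of the genome. When only peaks above the median score of their list were kept, 0 control-only regions and 1 ATRA-only region were counted in the stretch. With an equal number of peaks kept in each list, the control-only count was 4. Genome shares were not computed at these 2 settings, so neither count is read as a trait of the stretch.

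Control-specific peaks, in the sense of convincing peaks present in both control replicates and overlapping no convincing ATRA peak, numbered 7 of the 16 convincing control regions of the stretch. This was 43.8%, and 23.7% of convincing control regions were control-specific over the genome. The other 2 of the 7 lay in CSF1R intron 2 and PDGFRB intron 7 and had a peak in ATRA replicate 2. ATRA-specific peaks numbered 3 of 12 convincing ATRA regions (25.0%, beside 37.3% over the genome), in PDGFRB intron 1, in CDX1 intron 1 and between CDX1 and SLC6A7. Each of these 3 had a peak in 1 control library too, so 0 of them were free of control peaks. The presence patterns contributed no test, since the rule that picked the stretch used them.

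**Figure D2:**
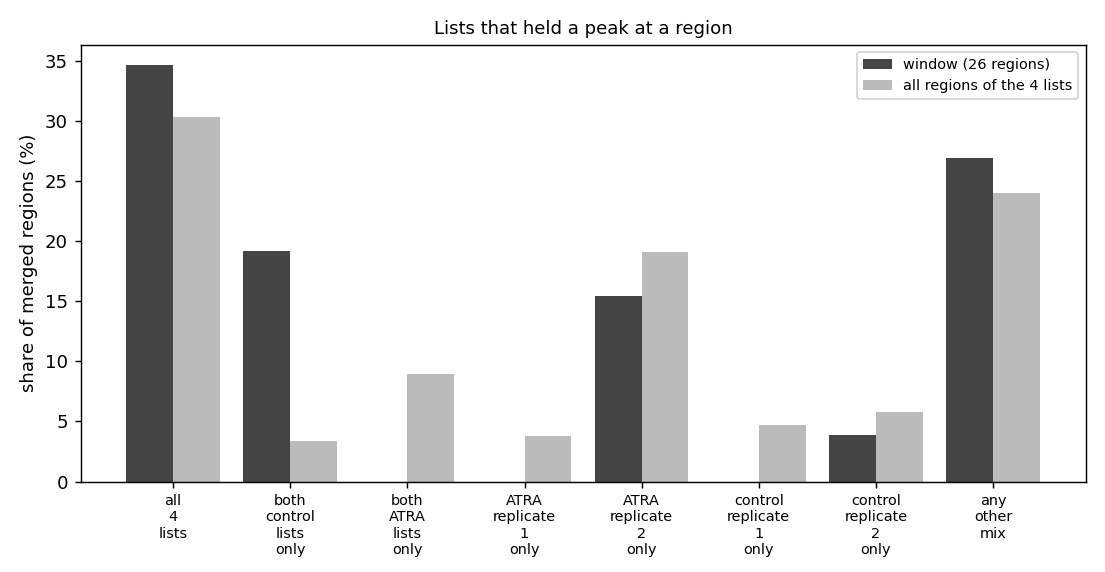
Share of merged regions, in percent, by the lists that held a peak there, for the 26 regions of the stretch (dark bars) and all 78046 regions (light bars). Regions in both control lists only made up 19.2% of the stretch and 3.37% of all regions, while regions in both ATRA lists only made up 0% and 8.93%.

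The CSF1R body, 60082 bp long, held 6 regions. ATRA replicate 1 had a peak in 2 of them, ATRA replicate 2 in 5, control replicate 1 in 3 and control replicate 2 in 4. The start sites of the gene are shown because they were open in 1 library only. The sequences are the parts of the RefSeq promoters (GRCh38.p14 table) that lie outside annotated exons, 5′ to 3′ on the minus strand, located by exact match in GRCh37. Capitals again mark the 9 motifs.
CSF1R, upstream start (chr5:149492936-149493178): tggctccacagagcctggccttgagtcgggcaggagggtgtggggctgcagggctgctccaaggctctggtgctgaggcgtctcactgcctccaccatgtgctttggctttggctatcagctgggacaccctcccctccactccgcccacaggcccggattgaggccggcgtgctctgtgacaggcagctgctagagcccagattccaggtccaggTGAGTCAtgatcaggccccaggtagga
CSF1R, start at the first coding exon (chr5:149466171-149466367): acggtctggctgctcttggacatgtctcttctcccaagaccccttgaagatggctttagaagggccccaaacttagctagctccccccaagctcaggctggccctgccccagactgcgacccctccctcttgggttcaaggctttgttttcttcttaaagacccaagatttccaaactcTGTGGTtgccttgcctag

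The upstream promoter part held an AP-1 match, found in 6.57% of the 35116 whole promoters of the table. The part in front of the first coding exon held a RUNX match, found in 11.0% of them. The parts hold 243 and 197 bases, fewer than the whole promoters to which these shares refer. At the first coding exon the whole promoter also held a PU.1 match, found in 23.6% of the promoters. At the latter start, ATRA replicate 2 had a peak of 564 bp (chr5:149465880-149466443) at the 52.3rd percentile, with a score of 118.51. At the upstream start it had a peak of 247 bp (chr5:149492755-149493001) at the 17.3rd percentile, with a score of 64.52. The centre of the former region held PU.1 and RUNX matches and that of the latter PU.1 and AP-1 matches. ATRA replicate 1 and both control libraries had no peak at either start, so the ATRA replicates differed from each other in the presence of these peaks. A peak at any TSS was found for 50.8% and 53.4% of 20136 protein-coding genes in ATRA replicates 1 and 2, and for 48.9% and 45.3% in control replicates 1 and 2. ATRA replicate 2 was also the library with the longest list (63541 peaks, beside 42081 to 45903 in the others), and regions found in it alone made up 19.1% of all regions of the genome. The part of list length in these peaks was not tested.

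Inside CSF1R, 2 intronic regions were open in every library. Over the genome, 30.3% of regions were in all 4 lists, and 9 of 26 were here. The region of CSF1R intron 15 (chr5:149438069-149438750) ranked at the 77.8th and 76.1st percentile in ATRA replicates 1 and 2, and at the 34.0th and 68.6th in control replicates 1 and 2. The region of intron 1 (chr5:149486037-149486600), 6616 bp downstream of the upstream start, ranked at the 66.0th and 80.5th percentile after ATRA and at the 20.5th and 51.5th in the controls. In both regions each ATRA library ranked above each control library. The means of the groups differed by 25.7 percentile points in intron 15 and by 37.2 points in intron 1. With lists of equal length, the groups overlapped in intron 15 and stayed apart in intron 1. In CSF1R intron 2 (chr5:149461411-149461831) the peaks of ATRA replicate 2, control replicate 1 and control replicate 2 ranked at the 53.7th, 44.0th and 51.4th percentile, and ATRA replicate 1 had none. The last region, in intron 11, was a peak of control replicate 2 alone, at the 34.1st percentile.

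**Figure D3:**
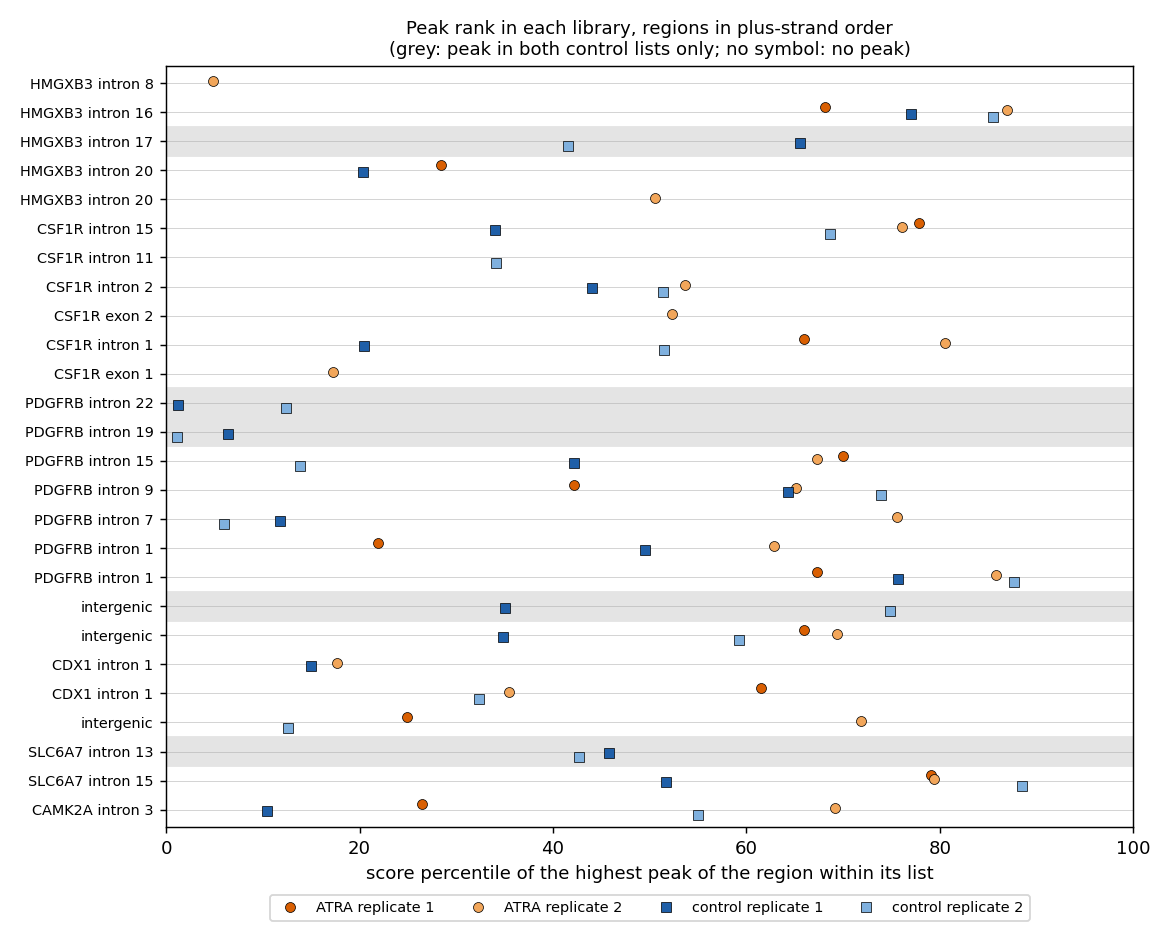
Percentile of the highest peak of each of the 26 regions within its list, for ATRA replicates (circles) and control replicates (squares), in plus-strand order from top to bottom, with no symbol where a list had no peak. Grey rows are the 5 control-only regions, of which the PDGFRB intron 22 and 19 regions sit at or below the 12.4th percentile, and in the shared regions of CSF1R introns 15 and 1 both circles lie to the right of both squares.

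The PDGFRB body held 7 regions, and all 7 had a peak in control replicate 1. Control replicate 2 had a peak in 6 of them, ATRA replicate 2 in 5 and ATRA replicate 1 in 4. No list had a peak at a PDGFRB TSS. The closest region (chr5:149533735-149534257), in intron 1 with its centre 1194 bp from the nearest TSS, was shared by all libraries. It ranked at the 67.3rd and 85.8th percentile after ATRA and at the 75.7th and 87.7th in the controls, so the groups overlapped.

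Further into PDGFRB, the intron 15 region (chr5:149501613-149502070) ranked at the 70.0th and 67.3rd percentile after ATRA and at the 42.2nd and 13.8th in the controls. The group means differed by 40.6 points, the most among the 9 shared regions, and the groups did not overlap. In intron 9 (chr5:149509211-149509958) the ATRA libraries ranked at the 42.2nd and 65.1st percentile and the controls at the 64.3rd and 73.9th, an overlap with the lowest value in ATRA replicate 1. The intron 15 region thus ranked higher after ATRA in the same gene body that held 2 control-only regions.

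Another pair of PDGFRB regions separated the ATRA replicates. In intron 7 (chr5:149511470-149512066) ATRA replicate 2 ranked at the 75.6th percentile, control replicate 1 at the 11.8th and control replicate 2 at the 6.02nd, and ATRA replicate 1 had no peak. This region counted as control-specific, although its strongest peak was that of ATRA replicate 2. The other intron 1 region (chr5:149522254-149522754) ranked at the 21.9th percentile in ATRA replicate 1, the 62.9th in ATRA replicate 2 and the 49.5th in control replicate 1. Its centre held GATA and PU.1 matches side by side.

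CDX1 and its surroundings held no peak at the TSS in any list. CDX1 intron 1 held both regions of the gene. The first (chr5:149555145-149555446) was present in ATRA replicate 2 at the 17.7th percentile and in control replicate 1 at the 15.0th. The second (chr5:149560278-149560976) was present in ATRA replicate 1 at the 61.5th percentile, in ATRA replicate 2 at the 35.4th and, as 2 separate peaks, in control replicate 2 at the 32.3rd. Neither region was open in all libraries of a group and closed in the other group.

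Between PDGFRB and CDX1, 4970 bp upstream of CDX1, a region (chr5:149541068-149541674) was present in every list. It ranked at the 66.0th and 69.4th percentile after ATRA and at the 34.8th and 59.2nd in the controls, with no overlap of the groups and a mean difference of 20.8 points. With lists of equal length the groups overlapped. This region and that of SLC6A7 intron 15 held the CTCF matches of the stretch. CTCF is the factor that bounds chromatin loops, and the centres are shown for that reason, in capitals where the motif matched.
Intergenic, upstream of CDX1 (chr5:149541271-149541470): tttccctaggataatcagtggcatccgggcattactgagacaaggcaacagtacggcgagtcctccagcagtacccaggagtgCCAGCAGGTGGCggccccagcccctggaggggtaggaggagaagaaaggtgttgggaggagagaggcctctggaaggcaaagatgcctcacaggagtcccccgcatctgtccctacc
SLC6A7 intron 15 (chr5:149597778-149597977): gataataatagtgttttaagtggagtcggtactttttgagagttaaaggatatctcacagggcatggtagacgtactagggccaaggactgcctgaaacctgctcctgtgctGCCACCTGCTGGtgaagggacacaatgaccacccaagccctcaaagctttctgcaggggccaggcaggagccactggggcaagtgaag
CTCF matches were present in 2 of the 9 regions found in all lists here and in 6.43% of the 23654 such regions of the genome.

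SLC6A7 had no peak at its TSS in any list, and its body held the control-only region of intron 13 and the shared region of intron 15 (chr5:149597597-149598159). The latter ranked at the 79.1st and 79.4th percentile after ATRA and at the 51.7th and 88.5th in the controls, the highest rank of the stretch, and the groups overlapped. Upstream of SLC6A7 a region of 1001 bp (chr5:149564725-149565725) ranked at the 24.9th percentile in ATRA replicate 1, the 71.8th in ATRA replicate 2 and the 12.6th in control replicate 2. The ATRA replicates were farther apart here than the lower of them was from the control.

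**Figure D4:**
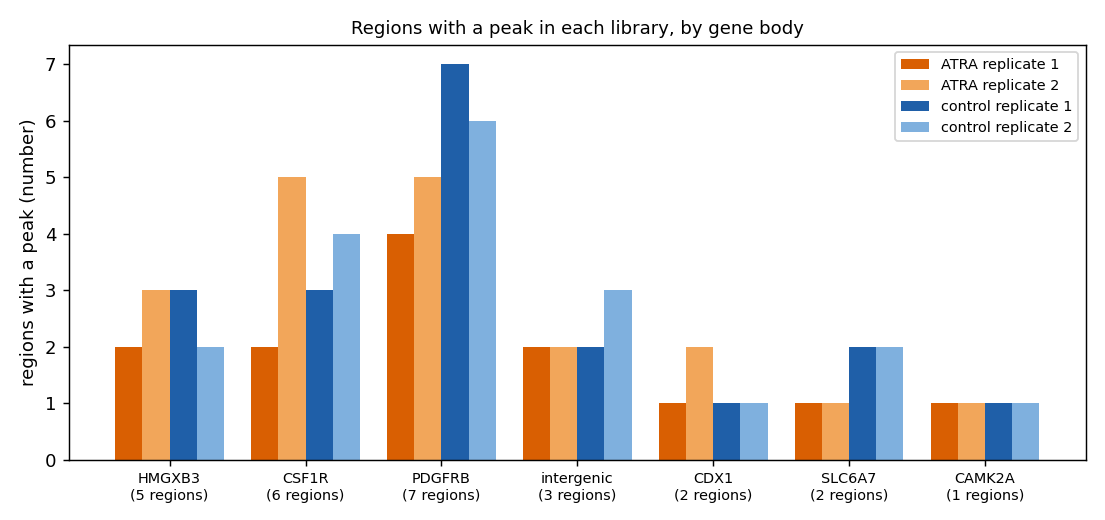
Number of regions with a peak in each library, by the gene body that held the region. PDGFRB had peaks in 7 and 6 regions in the control replicates and in 4 and 5 in the ATRA replicates, while in CSF1R the counts of 2 and 5 after ATRA enclosed the control counts of 3 and 4.

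The genes at the edges added 6 regions. HMGXB3 held 5 inside the stretch, the first of them a weak peak of ATRA replicate 2 alone in intron 8, at the 4.79th percentile. A shared region of its intron 16 (chr5:149423315-149424202) ranked at the 68.1st and 87.0th percentile after ATRA and the 77.0th and 85.5th in the controls. In intron 20 a region of ATRA replicate 1 and control replicate 1 ended at 149430243 and one of ATRA replicate 2 began at 149430249, so adjacent peaks were counted as separate regions. CAMK2A, which encodes a calcium-dependent kinase of neurons, held 1 shared region across the edge of the stretch, at the 26.5th and 69.2nd percentile after ATRA and the 10.4th and 55.0th in the controls.

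Over the 9 shared regions, both ATRA percentiles lay above both control percentiles in 4, the reverse held in 0 and the groups overlapped in 5. Over the genome the shares were 29.2% for ATRA above and 12.8% for control above. The 4 were the regions of CSF1R introns 15 and 1, PDGFRB intron 15 and the intergenic region upstream of CDX1. The median difference between group means was 15.1 percentile points here and 2.83 points over the 23654 shared regions of the genome. The percentile depends on how many weak peaks a list holds. When each list was held to 42081 peaks, a setting chosen after seeing the data, 2 of the 9 regions remained, CSF1R intron 1 and PDGFRB intron 15, and the genome share was 22.6%. The same 2 remained when percentiles were taken among shared regions alone (21.9% over the genome).

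The regions of the stretch had a median G and C content of 53.3%, beside 46.2% over all regions, and the control-only ones had 56.4%, beside 45.5%. The median width of peaks here was 291 and 563 bp in ATRA replicates 1 and 2, and 344 and 341.5 bp in the control replicates. Over all peaks of the lists these medians were 328, 416, 325 and 291 bp. ATRA replicate 2 thus had the widest peaks both here and overall.

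Counted by gene, with 50 kb on each side, CSF1R had 20 regions, of which 4 were control-only, 7 were in all lists and 0 were ATRA-only. PDGFRB had 3 control-only of 17 regions, CDX1 4 of 14 and SLC6A7 2 of 10, again with 0 ATRA-only regions. These counts share regions, because the genes are neighbours. Over 20136 protein-coding genes, 16.5% had a control-only region in that range and 40.9% had an ATRA-only region. The counts of the 4 genes restate the choice of the stretch, and nothing is read from them against these shares.

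The genes whose mix of presence patterns was most like that of CSF1R were found by the Bray-Curtis dissimilarity of region counts over the 15 patterns of the 4 lists, for 4702 genes with enough regions. SEMA4A had the lowest value at 0.135, with 3 control-only, 0 ATRA-only and 7 shared regions among 17. GRID1 followed at 0.171, BUD31 at 0.176, FOXN3 at 0.209 and GALNT2 at 0.211, where the median over all candidates was 0.484. BUD31 and GALNT2 had 0 control-only regions, so likeness in the whole mix did not require them. With 20 kb on each side in place of 50 kb, 1 of these 5 genes was again among the 5 most similar.

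Elsewhere in the class III family the pattern varied. KIT, the receptor for stem cell factor, had 3 ATRA-only and 0 control-only regions, FLT3 had 1 of each, and PDGFRA had 0 of both. Counted by convincing peaks, PDGFRA had 3 control-specific and 0 ATRA-specific regions, KIT had 0 and 4, and FLT3 had 1 and 3. Shares over all genes were not computed for these counts. FLT3, a receptor of early blood progenitors, had a peak at a TSS in both control lists and in neither ATRA list. In all, 3 of the 5 receptors had a control-only region and 2 had an ATRA-only region (16.5% and 40.9% of all genes), but 2 of the 3 were CSF1R and PDGFRB themselves. The median number of control-only regions was 1 over the 5 receptors and 0 over all genes. The 5 include CSF1R and PDGFRB, whose stretch was chosen for such regions, so nothing is read from this median.

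Among the 8 ligands of these receptors, 3 had a control-only region and 6 an ATRA-only region, where the shares over all genes were 16.5% and 40.9%. CSF1, the main ligand of CSF1R, had 0 control-only and 2 ATRA-only regions, and IL34, the other ligand, had 1 of each. PDGFB, the main ligand of PDGFRB, had 0 control-only and 1 ATRA-only region, and PDGFD, which also binds that receptor, had 1 control-only and 0 ATRA-only regions. PDGFA, a ligand of PDGFRA, had 1 of each and a TSS peak in both ATRA lists and neither control list. PDGFC and FLT3LG, the ligand of FLT3, had 1 ATRA-only region each and 0 control-only regions.

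Of 10 factors known to bind or regulate CSF1R, 3 had a control-only region (SPI1, CEBPA and JUN) and 7 had an ATRA-only region, beside the same 16.5% and 40.9% of all genes. SPI1, the gene of PU.1, had 1 of each, and CEBPA had 1 control-only and 3 ATRA-only regions. CEBPB, another C/EBP factor, had 0 control-only and 2 ATRA-only regions, and a TSS peak in both ATRA lists and neither control list. RUNX1, EGR1, EGR2 and ETS2 had 1 ATRA-only region each and 0 control-only regions, and JUN had 1 control-only and 0 ATRA-only regions. IRF8 had 0 regions of any kind.

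Of 11 signalling partners, 4 had a control-only and 8 an ATRA-only region (16.5% and 40.9% of all genes), with STAT3 at 2 control-only and 1 ATRA-only, and SOCS1, an inhibitor of cytokine signals, at 2 of each. The adaptor SHC1 had 1 of each and the exchange factor SOS1 had 1 control-only region. PIK3CD, INPP5D, TYROBP and PTPN6 had 2 ATRA-only regions each and GRB2 had 1, all with 0 control-only regions. Among the 3 CDX genes and the 9 amino acid transporters of the SLC6 family, the genes with a control-only region were CDX1 and SLC6A7, members of the stretch chosen for such regions. Those of CDX1 lay in its flanks, with 0 in its body. SLC6A17, of the same transporter family, had 1 ATRA-only region.

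The cell type labels were set beside peaks at the TSS of marker genes, with the shares over all genes of 50.8%, 53.4%, 48.9% and 45.3% as given above for the 4 libraries. Of 7 myeloid precursor markers, 3 had a TSS peak in ATRA replicate 1, 5 in ATRA replicate 2 and 3 in each control library, with SPI1 and CEBPE open in every list and ELANE and AZU1 in none. Among monocyte and macrophage markers, ITGAM had a TSS peak in every list, CD163 in both ATRA lists and neither control list, and MRC1 and CD14 in no list. Of 6 mural and fibroblast markers, the cells in which PDGFRB is typical, the counts were 2, 3, 3 and 2 in ATRA replicates 1 and 2 and control replicates 1 and 2, with COL1A1 and RGS5 open in every list. Of 6 erythroid and mast cell markers 0 had a TSS peak in any list, and of 5 lymphoid markers the counts were 0, 1, 0 and 1. By region, the markers CEBPE, MSR1 and COL3A1 had 1 control-only and 0 ATRA-only regions. CD14 and ACTA2 had 2 ATRA-only and 0 control-only regions, and CD163, COL1A1, RGS5, KLF1, CPA3 and CD3E had 1 and 0. ITGAM had 2 of each and CD2 had 1 of each. The TSS counts moved by at most 2 genes between libraries, and their part in the CSF1R and PDGFRB values was not tested.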

How the data were processed

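ATAC-seq was measured in 4 libraries of HL-60 cells, 2 per group, grouped by their titles. According to the study's methods, the authors trimmed adapters, aligned reads to hg19 with Bowtie (Bowtie2 in the processing notes) and called peaks for each library with MACS2 at its default settings. Any Tn5 shift, duplicate removal or blacklist is not given in the sources used here. The deposited lists hold positions and a score per peak from 50 to 3100, of unstated scale, used only as a rank within its list. Read counts were not among the columns, so depth was unknown and no interval could be computed.

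Peaks were merged across lists where they overlapped or touched. Convincing regions were in both replicates of a group by at least 1 bp. A TSS peak overlapped the span from 1 kb upstream to 100 bp downstream of a start. Distances from a region to a start were taken from the centre of the region, and those to the nearest ATRA peak between edges. Introns follow the longest protein-coding transcript of GENCODE release 44 lifted to GRCh37. Motifs were searched in 200 bp about the centre. Regions, genes and lists were named by 1 rule: all regions and genes of the stretch, all genes of the lists by counts (by values where a region was open in 1 group only), and the 5 genes with the most similar pattern. The members and lists were chosen with earlier results of these data known. The interval code was tested on simulated data, and Python 3.11.15 and matplotlib 3.10.9 were used. Alternatives were other overlap rules, score limits, peak widths, flanks and each library left out. The count over the monocyte and macrophage markers is not reported here.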

Additional observations from a re-analysis of the deposited data

How the results depend on the processing

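Of the 7 control-specific, 3 ATRA-specific, 9 overlapping ATRA, 5 control-only and 0 ATRA-only regions, peaks set to 200 bp, a flank of 100 kb or none, and equal list lengths gave 5 to 8, 3 to 4, 7 to 13, 4 to 6 and again 0 regions. With peaks above the median score of their list, the counts were 1 control-specific, 4 ATRA-specific, 3 overlapping, 0 control-only and 1 ATRA-only. With a reciprocal overlap of 50%, or with specific regions required to have no peak in any library of the other group, ATRA-specific regions numbered 0. Leaving out 1 library at a time gave 5 to 9 control-specific, 1 to 8 ATRA-specific, 9 to 11 overlapping, 5 to 7 control-only and 0 to 4 ATRA-only regions. Without ATRA replicate 1, ATRA-specific regions numbered 8 and ATRA-only regions 4. Without control replicate 1 they numbered 1 and 1, and without control replicate 2 they numbered 2 and 2. Genome shares of these region counts were not computed under the alternatives. Shared regions ranked higher after ATRA numbered 4 of 9, or 2 of 9 with equal list lengths or with percentiles among shared regions (chosen after seeing the data), and 4 to 8 with a library left out, with 8 of 11 (52.9% over the genome) without ATRA replicate 1. With whole regions searched, 9 regions in place of 4 held a GATA match. With 20 kb flanks, 1 of the 5 most similar genes was found again. The cause of these changes was not tested. With a replicate block (each ATRA library above the control of its number, which no label ties to a shared culture) 5 of 9 ranked higher, and 40.5% over the genome. Depth was unknown, so a missing peak may be a peak just under the calling limit.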
